A study of Mus musculus with 18 samples.

Results

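Notch signaling was read here through 10 of the 27179 genes in the count files: the ligands Dll1, Dll3, Jag1 and Jag2, the receptors Notch1, Notch2 and Notch3, and the target genes Hes1, Hes5 and Hey1. They were chosen by name, as the entries whose Entrez identifiers map to these mouse symbols. This rule uses no measured value, but earlier results of these data were known when it was set. All 10 were tested, among 20944 genes in all that had 1 count or more in an induced library.

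The libraries hold polyadenylated RNA from mouse embryonic stem cells (ESCs) that were grown as embryoid bodies, which are floating cell aggregates, and differentiated toward spinal motor neurons and interneurons. All 18 libraries received 1 µM retinoic acid (RA) and 0.5 µM SAG, a Hedgehog pathway agonist, from day 0. They fall into 6 groups of 3, which the study describes as independent differentiations. The lines derive from Ainv15 ESCs and carry a single doxycycline (Dox)-inducible gene each. Day 2 progenitors came from the iCre line and were collected on day 2. Neurons of the iHoxc6, iHoxc8, iHoxc9 and iHoxc10 lines received 3 µg/ml Dox for 48 h from day 2, which induced 1 Flag-tagged Hox gene, and were collected on day 4. Control neurons were iHoxc6 cells on day 4 without Dox, so the control shares its line with iHoxc6 neurons only. No group received Dox without a Hox transgene, and the drug and the transgene cannot be told apart.

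Notch is a receptor for signals between touching cells. A DSL ligand (Delta or Jagged) on one cell binds Notch on its neighbor, the receptor is cut, and its intracellular domain joins the DNA-binding protein RBPJ to turn on HES and HEY repressors. In the neural tube these repressors hold progenitors back from differentiation by silencing proneural genes, while cells that become neurons raise Delta ligands and so keep their neighbors undifferentiated.

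In RefSeq annotation of GRCm38, these genes are spread over the genome. The ligands are Dll1 at chr17:15367354-15376932, Dll3 at chr7:28293555-28301785, Jag1 at chr2:137081451-137116520 and Jag2 at chr12:112907803-112929812, all on the minus strand. The receptors are Notch1 at chr2:26457902-26503822 and Notch3 at chr17:32120820-32166896 on the minus strand, and Notch2 at chr3:98013538-98150367 on the plus strand. The targets are Hes1 at chr16:30065357-30067796 and Hes5 at chr4:154960626-154962372 on the plus strand, and Hey1 at chr3:8663359-8667038 on the minus strand. Exons of Dll1, Notch1, Notch3 and Hes5 overlap a noncoding gene on the opposite strand and those of Notch2 one on the same strand. As the strand setting of the counting is not known here, reads of these 5 and of their partners could not be separated.

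Total counts per library ran from 24498630 to 33168533, and 3 counts correspond to 0.0904 to 0.122 CPM (counts scaled to an equal library total), a floor that covers counting error only. Each induced Hox gene reached at least 213 CPM in every library in which it was induced and at most 49.4 CPM in any other, the uninduced iHoxc6 line of the control included. The summed level of 8 postmitotic neuron markers was 339.7 to 710.5 CPM in day 2 libraries and 6816 to 10564 CPM in day 4 libraries. Control replicate 2 stood apart from the other 2 controls. Its 10 neural progenitor markers summed to 1732 CPM (1092 and 991 CPM in the others), its 8 proliferation markers to 1273 CPM (845 and 741 CPM), and its neuron markers to 6816 CPM (7711 and 7524 CPM). The iHoxc6 and control libraries shared a sequencing run, as did iHoxc9 and iHoxc10, whereas iHoxc8 and day 2 libraries each had their own. The 6 pluripotency markers summed to at most 1.7 CPM on day 4. In RNA from a whole culture, fewer cells of a type and less RNA per cell cannot be told apart.

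The first comparison asked how these genes changed as progenitors became neurons without Hox induction. Of the 10, 6 were called in control neurons against day 2 progenitors (edgeR's quasi-likelihood test, Benjamini-Hochberg adjusted p under 0.01), where 42.4% of all genes tested were called (21.2% as higher and 21.2% as lower). Dll3, Jag2 and Hey1 rose, and Jag1, Notch2 and Hes1 fell. The members' median log2 fold change was -0.28, beside 0.00 over all genes tested. Day, line and sequencing run change together in this comparison and cannot be told apart.

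**Figure D1:**
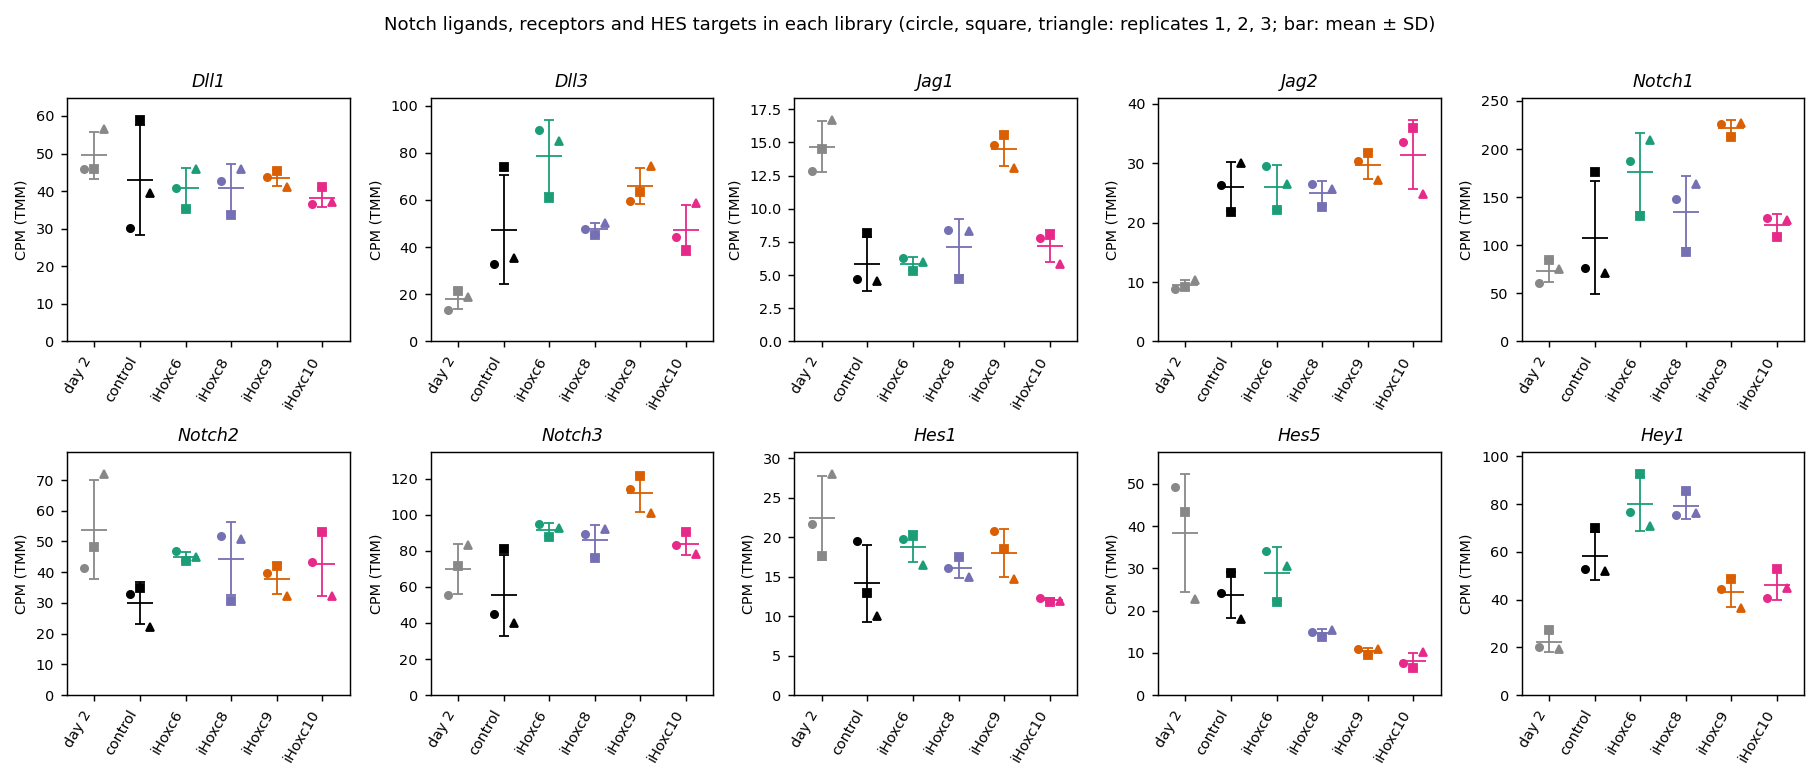
Level of each of the 10 genes in the 18 libraries, in TMM-normalized CPM on a linear axis with its own scale per gene. Points are libraries and bars are group means with SD (n = 3). Hes5 stands lowest in iHoxc9 and iHoxc10, and Jag1 in iHoxc9 stands near its day 2 level.

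The ligands went in different directions. Dll1, the main Delta ligand of the early neural tube, stood at 46.0, 45.9 and 56.7 CPM in day 2 progenitors and at 30.3, 58.9 and 39.5 CPM in controls. The control libraries enclosed the day 2 libraries, and the change was not called (log2 fold change -0.21, adjusted p = 0.369). Dll3, a divergent Delta protein that acts inside the cell on Notch signaling, stood at 13.4, 21.4 and 19.0 CPM on day 2 and at 32.7, 74.0 and 35.2 CPM in controls. All 3 control libraries were above all day 2 libraries (2.63-fold, log2 fold change 1.40 ± 0.25 SE, adjusted p = 4.84e-05).

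The Jagged ligands moved in opposite directions. Jag1, which activates Notch in many epithelia, stood at 12.8, 14.5 and 16.7 CPM on day 2 and at 4.69, 8.16 and 4.57 CPM in controls. The groups did not overlap, and Jag1 was 2.53-fold lower in controls (log2 fold change -1.34 ± 0.23 SE, adjusted p = 2.73e-05). Jag2, the other Jagged ligand and one known from motor neuron differentiation, stood at 8.79, 9.22 and 10.4 CPM on day 2 and at 26.3, 21.8 and 29.98 CPM in controls. Every control library exceeded every day 2 library by a wide margin (2.75-fold, log2 fold change 1.46 ± 0.16 SE, adjusted p = 8.01e-08).

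Because Jag1 is the ligand called in an induced group against control (described with iHoxc9 neurons), the 250 bases upstream of its RefSeq start (GRCm38.p6, minus strand, chr2:137116521-137116770) are given, read 5′ to 3′ on the gene's strand. Capitals mark ATAAA, the reverse complement of TTTAT, a core sequence that posterior Hox proteins prefer.
Jag1 upstream: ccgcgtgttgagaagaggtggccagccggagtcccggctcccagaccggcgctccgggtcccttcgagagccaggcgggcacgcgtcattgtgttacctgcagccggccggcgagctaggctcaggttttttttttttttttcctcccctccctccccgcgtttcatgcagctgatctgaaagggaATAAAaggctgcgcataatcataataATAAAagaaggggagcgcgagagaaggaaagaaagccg
The matches begin 64 and 38 bases before the start. TTTAT on either strand occurs in 37.3% of 32851 RefSeq promoter windows of 250 bases, so a match alone is common, and it is not a measured binding site.

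Receptor changes were smaller. Notch1, the receptor most studied in neural progenitors, stood at 60.8, 84.6 and 74.9 CPM on day 2 and at 76.8, 176 and 71.0 CPM in controls, where replicate 2 alone exceeded 100 CPM. The difference was not called (log2 fold change 0.56, adjusted p = 0.0808). Notch2, a receptor of neuroepithelium and many other tissues, stood at 41.4, 48.1 and 72.1 CPM on day 2 and at 32.8, 34.8 and 22.1 CPM in controls. It fell without overlap (log2 fold change -0.85 ± 0.22 SE, adjusted p = 0.00269), but missed the threshold without day 2 replicate 3 (adjusted p = 0.0254) or control replicate 3 (adjusted p = 0.0208), and with only these 2 groups in the fit (adjusted p = 0.0218). Notch3, which is also known from vessel walls, stood at 55.6, 71.5 and 83.1 CPM on day 2 and at 44.8, 81.2 and 39.8 CPM in controls. It was not called (log2 fold change -0.34, adjusted p = 0.152), but without control replicate 2 it was (log2 fold change -0.73, adjusted p = 0.000427).

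Among the targets, Hey1, a HEY repressor, stood at 20.1, 27.1 and 19.4 CPM on day 2 and at 52.9, 70.0 and 52.1 CPM in controls. No control library reached down to the day 2 range (2.63-fold, log2 fold change 1.39 ± 0.17 SE, adjusted p = 2.27e-07). Hes1, a HES repressor that oscillates in neural progenitors, stood at 21.6, 17.6 and 28.0 CPM on day 2 and at 19.5, 12.9 and 9.99 CPM in controls. Its groups overlapped, and its call was the least firm of the 6 (log2 fold change -0.66 ± 0.20 SE, adjusted p = 0.00772): it was lost in 5 of 12 alternatives, namely without day 2 replicate 1 or 3 (adjusted p = 0.012 and 0.0514), without control replicate 2 or 3 (adjusted p = 0.0291 and 0.0515) and with only these 2 groups in the fit (adjusted p = 0.0859). Hes5, the HES repressor most used as a readout of Notch activity in neural progenitors, stood at 49.3, 43.3 and 22.6 CPM on day 2 and at 24.1, 28.8 and 18.1 CPM in controls. Day 2 replicate 3 lay inside the control range, and the difference was not called (log2 fold change -0.70 ± 0.23 SE, adjusted p = 0.0137). Without that library Hes5 was called (log2 fold change -0.97, adjusted p = 0.000147), and without control replicate 2 also (adjusted p = 0.00653).

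The 30-base windows around the RBPJ cores upstream of Hes5 are shown because Hes5 has the largest change between an induced group and control below. RefSeq sequence of GRCm38.p6 is given on the plus strand, with the core (TGGGAA, or TTCCCA on the other strand) in capitals.
Hes5, chr4:154960685-154960714: agggcgagcgcgTTCCCAcagcccggacat
Hes5, chr4:154960829-154960858: ggccgccgagtgTGGGAAcggccgcggcgc
The cores begin 226 and 82 bases before the transcript start used here, and both lie inside the longer RefSeq gene span (chr4:154960626-154962372). Of 9 upstream windows for 8 members with an entry, this was the 1 window with the core, which 21.6% of all promoter windows hold. Hes1 and Hey1 had no entry.

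Induction of Hoxc6, the brachial gene, was the only comparison made within 1 line and 1 run. None of the 10 members was called in iHoxc6 neurons against controls by edgeR, where 0.587% of all genes tested were called (0.363% as higher and 0.224% as lower). At an unadjusted p under 0.05 there were 5 members, and DESeq2 called 0. At that looser threshold 3 of 10 progenitor, 3 of 8 neuron and 2 of 8 proliferation markers passed too. The share of all genes that passed it is not given here. The members' median log2 fold change was 0.43, beside 0.00 over all genes.

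The receptors lay above control in iHoxc6 without passing the threshold. Notch3 stood at 95.1, 87.7 and 92.8 CPM, above every control library (log2 fold change 0.73, adjusted p = 0.0438). Notch2 stood at 46.7, 43.6 and 44.9 CPM, also above every control library (log2 fold change 0.59, adjusted p = 0.13). Notch1 stood at 187, 130 and 209 CPM, which overlapped control replicate 2 (log2 fold change 0.70, adjusted p = 0.127). Dll3 stood at 89.7, 60.9 and 84.7 CPM, its highest group mean (log2 fold change 0.73, adjusted p = 0.0882), and Hey1 at 76.8, 92.8 and 70.8 CPM, above every control (log2 fold change 0.46, adjusted p = 0.109). Hes5 stood at 34.2, 21.9 and 30.5 CPM, within and above the control range (log2 fold change 0.29, adjusted p = 0.507). Jag1 and Jag2 had log2 fold changes of 0.01 and 0.00.

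These counts depended on control replicate 2, the control library with the highest progenitor and proliferation marker sums. Without it, 3 members were called in iHoxc6 neurons: Dll3 (log2 fold change 1.21, adjusted p = 0.00121), Notch1 (1.25, adjusted p = 0.00131) and Notch3 (1.12, adjusted p = 0.00033). The 0.587% of all genes belongs to the fit of all libraries. The share of all genes called without this library is not given here, so the 3 members cannot be set against it. The progenitor marker sum was 1435 to 1517 CPM in iHoxc6 libraries, between control replicate 2 and the other 2 controls, and its part in the result was not tested.

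Hoxc8 is also a brachial gene. None of the 10 members was called in iHoxc8 neurons against controls by edgeR, where 2.12% of all genes tested were called (1.03% as higher and 1.09% as lower), while 4 had an unadjusted p under 0.05 and DESeq2 called 0. At the unadjusted threshold 4 of 10 progenitor, 3 of 8 neuron and 2 of 8 proliferation markers passed too, and the share of all genes is not given here. The median log2 fold change was 0.25, beside 0.02 over all genes. Line and run differ between these groups and cannot be told apart from the induction, which holds for iHoxc9 and iHoxc10 against controls as well.

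Hes5 stood at 15.0, 13.8 and 15.4 CPM in iHoxc8, below every control library, with a log2 fold change of -0.68 ± 0.23 SE that missed the threshold (adjusted p = 0.0717). Hey1 stood at 75.4, 85.3 and 76.5 CPM, above every control (log2 fold change 0.44, adjusted p = 0.0971). These targets lay on opposite sides of control in the same libraries, with neither difference called. Notch3 stood at 89.4, 76.1 and 92.3 CPM (log2 fold change 0.64, adjusted p = 0.0467) and Notch1 at 148, 92.8 and 164 CPM (log2 fold change 0.32, adjusted p = 0.505). Without control replicate 2, both passed (Notch3 1.02, adjusted p = 0.000299, and Notch1 0.87, adjusted p = 0.00731). The share of all genes called in that fit is not given here either. Dll1, Dll3 and Jag2 had log2 fold changes of -0.07, 0.01 and -0.06.

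Neurons with Hoxc9, the thoracic gene, induced had the most members called against controls. In iHoxc9 neurons against controls, 4 of 10 were called, where 14.1% of all genes tested were called (6.95% as higher and 7.13% as lower). A ligand (Jag1) and 2 receptors (Notch1 and Notch3) rose, and the target Hes5 fell. The median log2 fold change was 0.35, beside 0.00 over all genes.

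Jag1 stood at 14.8, 15.6 and 13.1 CPM in iHoxc9 neurons against 4.69, 8.16 and 4.57 CPM in controls, and the groups did not overlap. It was 2.50-fold higher (log2 fold change 1.32 ± 0.23 SE, adjusted p = 0.000182), and the call held in 12 of 12 alternatives. This put Jag1 at its day 2 level: iHoxc9 libraries overlapped day 2 libraries, with a log2 fold change of -0.02 (adjusted p = 0.988), whereas the other day 4 groups were all lower than day 2 progenitors. Jag2, which had risen with differentiation, stood at 30.4, 31.8 and 27.2 CPM, overlapping controls (log2 fold change 0.19, adjusted p = 0.41). Dll3 stood at 59.7, 63.2 and 74.4 CPM (log2 fold change 0.48, adjusted p = 0.164) and passed only without control replicate 2 (log2 fold change 0.95, adjusted p = 0.00101). Dll1 stood at 43.7, 45.4 and 41.2 CPM, inside the control range (log2 fold change 0.02).

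Notch3 stood at 114, 122 and 100.9 CPM in iHoxc9 neurons, above all controls. It was 2.03-fold higher (log2 fold change 1.02 ± 0.20 SE, adjusted p = 0.000583), called in 12 of 12 alternatives. Notch1 stood at 226, 212 and 227 CPM, its highest level in any group, and all 3 libraries exceeded the highest control of 176 CPM. Notch1 was 2.06-fold higher (log2 fold change 1.04 ± 0.26 SE, adjusted p = 0.00566). That call was lost in 6 of 12 alternatives: without control replicate 1 or 3 (adjusted p = 0.0421 and 0.0604), without any of iHoxc9 replicates 1, 2 and 3 (adjusted p = 0.0175, 0.0144 and 0.0184) and with only these 2 groups in the fit (adjusted p = 0.0127). Notch2, at 39.7, 41.9 and 32.2 CPM, was not called (log2 fold change 0.34, adjusted p = 0.294).

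Hes5 stood at 10.8, 9.39 and 10.9 CPM in iHoxc9 neurons against 24.1, 28.8 and 18.1 CPM in controls. The groups were well separated, and Hes5 was 2.29-fold lower (log2 fold change -1.19 ± 0.24 SE, adjusted p = 0.000814), called in 12 of 12 alternatives. The other 2 targets did not pass. Hes1 stood at 20.8, 18.5 and 14.7 CPM (log2 fold change 0.35, adjusted p = 0.23). Hey1 stood at 44.3, 48.6 and 36.3 CPM, below every control library (log2 fold change -0.44, adjusted p = 0.0543). In iHoxc9 neurons Notch1, Notch3 and Jag1 thus stood above control in the libraries where Hes5 stood below. Of the 10 progenitor markers, 2 rose and 2 fell in iHoxc9 neurons, and 2 of 8 proliferation markers fell. Their part in these results was not tested.

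**Figure D2:**
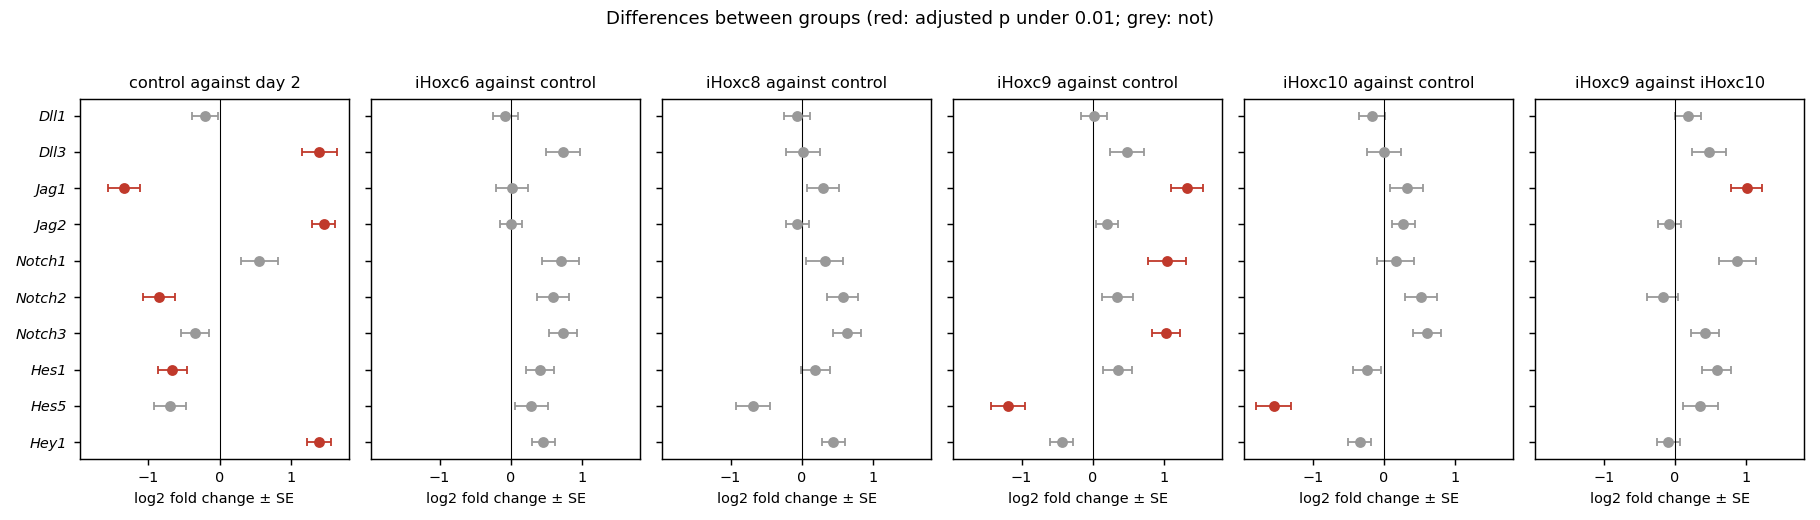
Log2 fold change of each of the 10 genes (points, with bars for the SE) in 6 comparisons from the edgeR fit, in red where adjusted p was under 0.01 and in grey otherwise. Hes5 is red and below 0 in iHoxc9 and iHoxc10 against control, and against control Jag1, Notch1 and Notch3 are red and above 0 in iHoxc9 alone.

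Neurons with Hoxc10, the lumbar gene, induced had 1 member past the threshold. In iHoxc10 neurons against controls, Hes5 was the only one of 10 called, where 14.4% of all genes tested were called (6.67% as higher and 7.75% as lower). The median log2 fold change was 0.08, beside 0.00 over all genes. Hes5 stood at 7.60, 6.48 and 10.2 CPM, its lowest group, and all 3 libraries were below all controls (2.93-fold lower, log2 fold change -1.55 ± 0.24 SE, adjusted p = 7.43e-05). The call held in 12 of 12 alternatives. iHoxc10 neurons had higher neuron marker sums (9367 to 10564 CPM) and lower proliferation marker sums (545 to 671 CPM) than controls, and 3 of 10 progenitor markers fell; the part of these in the Hes5 result was not tested.

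The other members of the iHoxc10 group stayed nearer to control. Notch3 stood at 83.0, 90.6 and 78.6 CPM (log2 fold change 0.61, adjusted p = 0.0266) and was called only without control replicate 2 (log2 fold change 0.99, adjusted p = 7.41e-05). Notch2 stood at 43.2, 53.0 and 32.2 CPM (log2 fold change 0.52, adjusted p = 0.0994), and Notch1 at 128, 108 and 126 CPM, inside the control range (log2 fold change 0.16, adjusted p = 0.719). Jag1 stood at 7.81, 7.99 and 5.83 CPM, inside the control range (log2 fold change 0.32, adjusted p = 0.355), and Jag2 at 33.6, 35.9 and 24.8 CPM (log2 fold change 0.27, adjusted p = 0.229). Hes1 at 12.3, 11.8 and 11.9 CPM and Hey1 at 40.5, 53.0 and 44.7 CPM had log2 fold changes of -0.24 and -0.34 (adjusted p = 0.455 and 0.14). The 4 comparisons with control share its 3 libraries, so they are not independent of each other.

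The thoracic and lumbar inductions were compared directly between iHoxc9 and iHoxc10 neurons, which share a run but not a line. Line and induced gene cannot be told apart here. Mean Hoxc9 was 224 CPM in iHoxc9, and mean Hoxc10 was 430 CPM in iHoxc10. Mean Hoxc6 was 47.3 CPM in iHoxc10 and 2.14 CPM in iHoxc9, and the part of these levels was not tested. Of 10 members, 1 was called, Jag1, where 4.99% of all genes tested were called (2.6% as higher and 2.4% as lower). Jag1 was higher in iHoxc9 by a log2 fold change of 1.00 ± 0.22 SE (adjusted p = 0.00453), and no iHoxc10 library reached the lowest iHoxc9 library of 13.1 CPM. The call was lost in 5 of the 6 fits that left out 1 library (adjusted p = 0.0171 and 0.0249 without iHoxc9 replicates 1 and 2, and 0.014, 0.0122 and 0.0506 without iHoxc10 replicates 1, 2 and 3), although the direction held in all 6. Progenitor marker sums were 1495 to 1596 CPM in iHoxc9 and 1107 to 1315 CPM in iHoxc10, and their part in this result was not tested. Hes5, which fell in both groups against control, was not called between them (log2 fold change 0.36, adjusted p = 0.498), and their libraries overlapped.

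Among members not called, Notch1 had a log2 fold change of 0.88 ± 0.26 SE for iHoxc9 against iHoxc10 (adjusted p = 0.0375). The values were 0.42 for Notch3 (adjusted p = 0.24), 0.48 for Dll3 (adjusted p = 0.293), 0.18 for Dll1 (adjusted p = 0.651) and 0.59 for Hes1 (adjusted p = 0.0807). Jag2, Notch2 and Hey1 went the other way (-0.08, -0.17 and -0.10), also without a call. Same-numbered iHoxc9 and iHoxc10 libraries deviated together. When a block for that pairing was added to the fit of all libraries, an alternative chosen after seeing the data, Jag1 was still the 1 member called (adjusted p = 0.00682), with 4.4% of genes called. A blocked fit of these 2 groups alone, also chosen after seeing the data, called 7 members and 28.9% of 20102 genes, but it has 2 residual degrees of freedom and its spread was estimated over all genes together rather than per gene.

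Against day 2 progenitors, the induced neurons shared the 3 progenitor libraries, and their counts are therefore given side by side. In iHoxc6 neurons 5 of 10 members were called, beside 46.6% of all genes tested (22.7% as higher and 23.9% as lower). In iHoxc8 neurons there were 6, beside 44.6% (22.3% and 22.3%). The iHoxc9 neurons also had 6, beside 46.7% (23.4% and 23.3%), as did iHoxc10 neurons, beside 50.2% (24.1% and 26.1%). Dll3, Jag2 and Hey1 rose in all 4, by log2 fold changes of 1.39 to 2.13, 1.40 to 1.73 and 0.96 to 1.85. Notch1 rose in iHoxc6 (1.26), iHoxc8 (0.88) and iHoxc9 (1.60), and Notch3 rose in iHoxc9 (0.68). Hes5 fell in iHoxc8 (-1.38), in iHoxc9 (-1.89, 3.71-fold lower) and in iHoxc10 (-2.25, 4.75-fold lower, adjusted p = 3.68e-08). Hes1 fell in iHoxc10 (-0.90, adjusted p = 0.000507). Jag1 fell in iHoxc6 (-1.32), iHoxc8 (-1.04) and iHoxc10 (-1.02). Of the 4 receptor calls, Notch1 in iHoxc6 and in iHoxc9 held in 12 of 12 alternatives. The call of Notch1 in iHoxc8 was lost without day 2 replicate 1, 2 or 3 (adjusted p = 0.0459, 0.0111 and 0.0124) and without iHoxc8 replicate 1 or 3 (0.0259 and 0.0448). It was also lost with the replicate block (0.0109) and with a filter of at least 10 counts in 3 libraries (0.0116). The call of Notch3 in iHoxc9 was lost without day 2 replicate 1 or 2 (0.0572 and 0.0214) and without iHoxc9 replicate 1 or 2 (0.0136 and 0.0229). Hes5 in iHoxc6 (log2 fold change -0.41) was called only without day 2 replicate 3 (-0.68, adjusted p = 0.00372).

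Few of these changes were large. A log2 fold change beyond 2 in addition to the p threshold was reached against day 2 by Dll3 in iHoxc6, where 14.8% of all genes tested did so, and by Hes5 in iHoxc10, where 18.7% did so. No member reached it against day 2 in control (12.6% of genes), iHoxc8 (14.2%) or iHoxc9 (15.6%). Against control none did in iHoxc6 (0.115%), iHoxc8 (0.22%), iHoxc9 (2.7%) or iHoxc10 (1.48%), and none between iHoxc9 and iHoxc10 (1.31%).

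Over all 6 groups, Dll1 was the flattest member. Its group means ran from 38.3 ± 2.53 CPM in iHoxc10 to 49.5 ± 6.19 CPM in day 2 progenitors (SD, n = 3), and both its lowest and its highest library were controls. It was called in none of 10 comparisons by edgeR, with 0 at an unadjusted p under 0.05 and 0 by DESeq2. Hes5 had the widest span of group means, a ratio of 4.75 between 38.4 ± 13.99 CPM on day 2 and 8.10 ± 1.91 CPM in iHoxc10. In order, its means fell from day 2 through iHoxc6 and control, whose libraries overlapped, to iHoxc8, then iHoxc9, each below the one before without overlap, and iHoxc10, which overlapped iHoxc9. Jag1 split into a high pair, day 2 and iHoxc9, and 4 low groups that overlapped from neighbor to neighbor, with a gap only between iHoxc9 and iHoxc10. Notch1 and Notch3 were each highest in iHoxc9, with a gap to iHoxc6 next in order.

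Levels of different members were compared per kilobase (kb) of exon. Exon length is the union of exons over all GENCODE transcripts of a gene. It was not taken from the annotation used for counting, and the shares depend on it. In day 2 progenitors Dll1 made up 53.7% ± 4.2 of the summed ligand level and Dll3 28.6% ± 4.7 (SD, n = 3). In controls Dll3 made up 51.3% ± 6.4 and Dll1 32.4% ± 2.2, so the leading ligand transcript changed from Dll1 to Dll3. The Dll3 share was 65.4% ± 2.3 in iHoxc6. Jag1 fell from 11.5% ± 0.3 on day 2 to 3.2% ± 0.3 in controls as a share and stood at 6.2% ± 0.8 in iHoxc9.

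**Figure D3:**
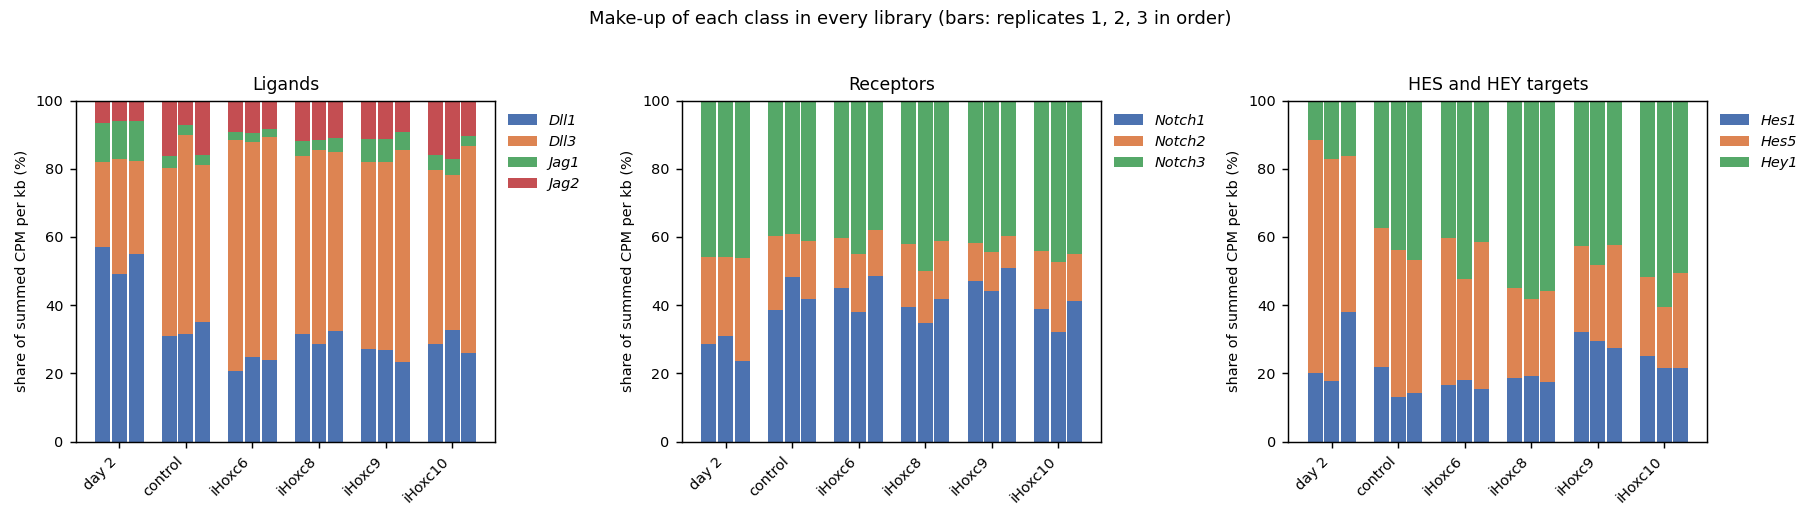
Share of each member, in percent, in the summed level (CPM per kb of exon) of its class, ligands, receptors or targets, with 1 stacked bar per library and replicates 1 to 3 side by side in each group. Dll1 has the largest ligand share in the day 2 libraries and Dll3 in the day 4 libraries, and the mean Hes5 share of the targets is smallest in iHoxc8, iHoxc9 and iHoxc10.

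Among receptors, Notch3 had the largest share on day 2 at 46.0%, with Notch1 at 27.7% and Notch2 at 26.3%. Notch1 had the largest mean share in controls (42.9%), iHoxc6 (43.8%) and iHoxc9 (47.3%). Notch3 had it in iHoxc8 (44.5%) and iHoxc10 (45.4%). The lead of Notch3 over Notch1 rests on the exon lengths used, 14232 bases for Notch1 and 8089 for Notch3. In CPM, mean Notch1 was above mean Notch3 in iHoxc8 (135 and 85.9), iHoxc10 (121 and 84.1) and day 2 (73.4 and 70.1). Notch2 had 17.2% in controls and 10.6% in iHoxc9. The summed receptor level was 33.0 ± 1.4 CPM per kb in iHoxc9 and 17.2 in controls, where it ranged from 11.96 to 25.6. Among targets, Hes5 held 59.8% ± 12.3 on day 2, 40.9% ± 2.2 in controls, 25.9% in iHoxc9 and 22.9% in iHoxc10. Hey1 held 15.0% on day 2 and 54.3% in iHoxc10. The summed target level was 42.2 CPM per kb in controls, 29.6 ± 2.9 in iHoxc9 and 25.9 ± 1.7 in iHoxc10. These shares and sums are descriptions and were not tested.

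The rest of the pathway was read from 56 further genes: other ligands, the nuclear complex, corepressors, gamma secretase, receptor processing enzymes, regulators of ligand endocytosis, inhibitors and other HES and HEY genes. In controls against day 2, 26 rose and 5 fell, 55.4% of the list beside the 42.4% of all genes, with a median log2 fold change of 0.56. Gamma secretase, the protease that releases the intracellular domain, rose in 5 of 6 genes, beside 21.2% of all genes called as higher. The largest changes were in Dtx1, a Deltex ubiquitin ligase (1.09 to 13.8 CPM, log2 fold change 3.64), Dner, a Notch-binding membrane protein of neurons (1.97 ± 0.166 to 24.4 ± 5.15 CPM, 3.63), Dll4, a Delta ligand of vessels and some interneuron progenitors (12.4 ± 2.95 to 1.90 ± 0.531 CPM, -2.71), and Cntn1, a neuronal contactin (3.35 to 21.6 CPM, 2.69). All 4 had an adjusted p under 0.01, which named them.

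In induced neurons against controls, iHoxc6 had 1 of 56 called (1.79% of the list, beside 0.587% of all genes tested), and iHoxc8 had 2 (3.57% beside 2.12%). iHoxc9 neurons had 12 (9 rose and 3 fell, 21.4% beside 14.1%), and iHoxc10 neurons had 10 (7 rose and 3 fell, 17.9% beside 14.4%). The iHoxc10 share lay near that of all genes. Dner was called in each of the 4. It stood at 29.1, 25.4 and 18.9 CPM in controls, and its mean in iHoxc6 was 44.6 ± 2.13 CPM. It was 70.9 ± 4.46 CPM in iHoxc8, and the posterior groups had 84.8 ± 5.78 CPM (iHoxc9) and 148 ± 18.3 CPM (iHoxc10). No library of an induced group reached down to the control range, and the log2 fold changes were 0.87 (adjusted p = 0.00162), 1.53 (1.36e-06), 1.79 (6.24e-09) and 2.59 (6.28e-11). Between iHoxc9 and iHoxc10, Dner was lower in iHoxc9 (log2 fold change -0.80, adjusted p = 0.000462).

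Of 7 genes of the nuclear complex, 2 rose in iHoxc9 and the same 2, Maml2 and Rbpj, in iHoxc10. Over all genes tested, 6.95% and 6.67% were called as higher in these groups. Maml2, a Mastermind coactivator, went from 5.00 ± 1.17 CPM in controls to 26.3 ± 0.199 CPM in iHoxc9 (log2 fold change 2.39, adjusted p = 1.21e-08) and 29.5 ± 6.91 CPM in iHoxc10 (2.56, adjusted p = 1.29e-08). Rbpj went from 104 ± 25.1 CPM in controls to 172 ± 7.16 CPM in iHoxc9 and 161 ± 10.5 CPM in iHoxc10. Rbpj thus rose in groups where the target Hes5 fell. Dlk1, a membrane protein related to Delta that lacks the DSL domain, went from 7.09 ± 2.65 CPM to 58.7 ± 10.9 CPM in iHoxc9 (log2 fold change 3.06, adjusted p = 6.22e-06) and 48.1 ± 1.95 CPM in iHoxc10 (2.77, adjusted p = 3.03e-05). Lfng, a Fringe enzyme that sugars Notch receptors, was called as lower in both, from 31.5 ± 8.03 CPM to 16.8 ± 0.631 and 18.2 ± 2.696 CPM.

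Other pathway genes were called as well. Neurl1a, a ubiquitin ligase of ligand endocytosis, was higher than in controls in iHoxc9 (log2 fold change 1.39, adjusted p = 3.78e-05) and was also called as higher in iHoxc10. Dtx1 was higher in iHoxc10 (40.3 against 13.8 CPM, 1.55, adjusted p = 9.86e-05). Neither Neurl1a nor Dtx1 was called between iHoxc9 and iHoxc10. Between iHoxc9 and iHoxc10, 3 of 56 were called, 5.36% beside 4.99% of all genes. With Dner these were Hey2, at 5.03 ± 0.313 CPM in iHoxc9 and 2.00 ± 0.244 CPM in iHoxc10 (log2 fold change 1.33, adjusted p = 0.00398), and Mfng, another Fringe, at 80.6, 75.1 and 87.1 CPM against 44.1, 38.4 and 58.2 CPM (0.79, adjusted p = 0.00541). Leaving out any of the 6 libraries lowered this count to 1 or 2. Counts against control moved with several libraries. Without control replicate 2, iHoxc6 had 3 of 56 called, iHoxc8 had 5 and iHoxc9 had 16. The iHoxc9 count was 7 without control replicate 3 or any of its own 3 libraries. The iHoxc10 count was 6 without its replicate 1 or 2, the iHoxc8 count was 1 without control replicate 3 or its own replicate 1 or 3, and the iHoxc6 count was 0 without its replicate 1. For the fits that left out a library, the share of all genes called is not given here.

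**Figure D4:**
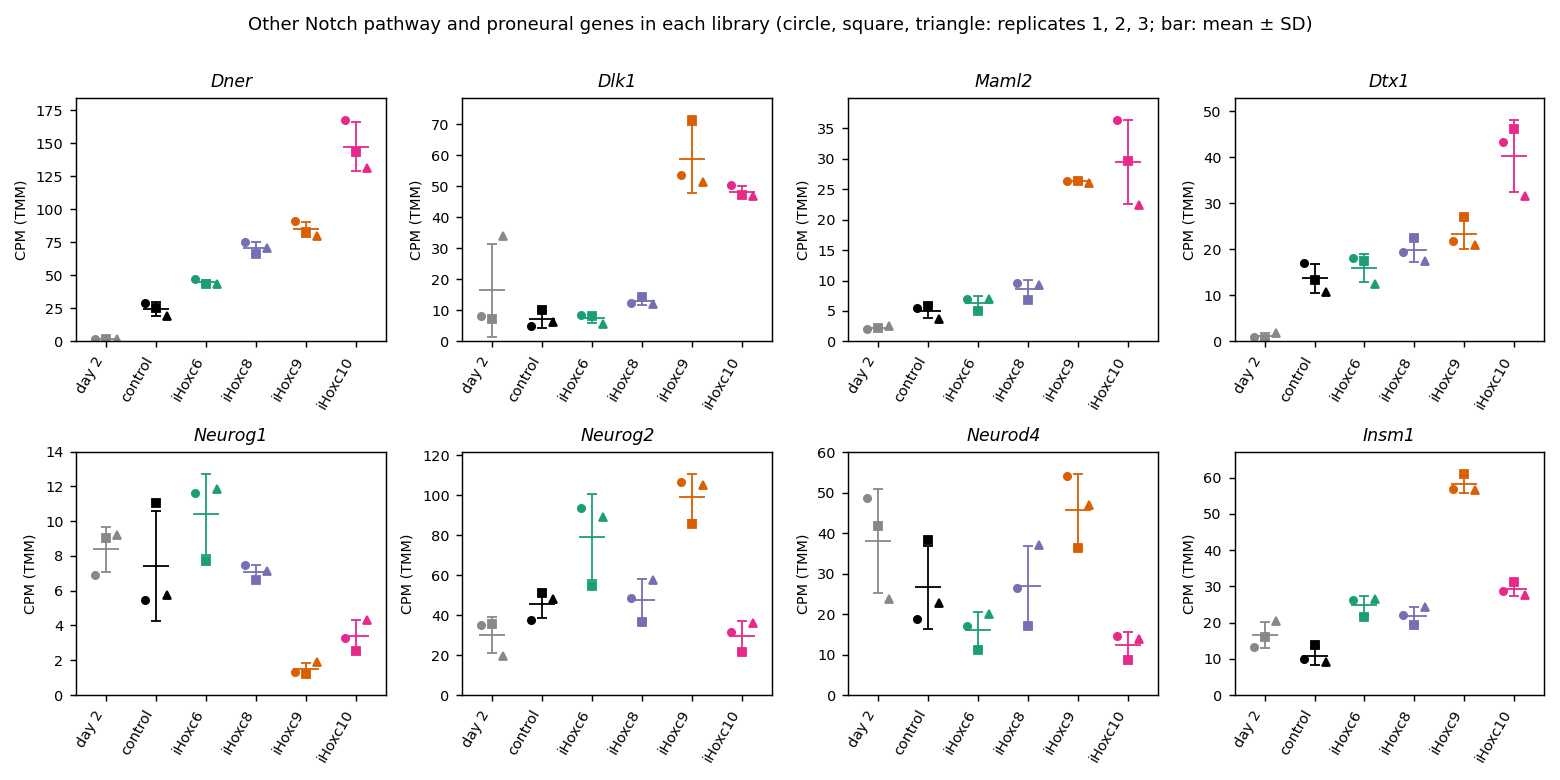
Levels of named Notch pathway and proneural genes in the 18 libraries, in TMM-normalized CPM, with points for libraries and bars for group means with SD (n = 3). Dner rises from 1.97 CPM on day 2 to 148 CPM in iHoxc10, and Dlk1 and Maml2 stand high in iHoxc9 and iHoxc10.

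Proneural factors, the bHLH and zinc finger genes that drive neuron formation and include targets of HES repression, were read from 8 genes. In iHoxc9 neurons against controls 4 rose and 1 fell, beside the 14.1% of all genes called. Insm1, a zinc finger factor of newborn neurons, stood at 9.83, 13.7 and 8.98 CPM in controls and at 56.8, 61.1 and 56.6 CPM in iHoxc9, with no overlap (log2 fold change 2.43, adjusted p = 1e-09). Neurod1 went from 9.71 ± 0.272 to 29.6 ± 6.58 CPM (1.60, adjusted p = 0.000349). Neurog1 went the other way, from 7.41 ± 3.15 to 1.48 ± 0.376 CPM (-2.33, adjusted p = 2.53e-06). Insm1 was also called as higher in iHoxc6, iHoxc8 and iHoxc10, with means of 24.8 ± 2.69, 21.9 ± 2.46 and 29.2 ± 1.76 CPM.

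Between iHoxc9 and iHoxc10 neurons, 5 of 8 proneural genes were called, beside 4.99% of all genes. In the same comparison 3 of 10 progenitor markers were higher in iHoxc9 and none lower, and 8 proliferation markers had a median log2 fold change of 0.64 with 1 called as higher. The part of these in the proneural result was not tested. Neurog2, a proneural gene of motor neuron progenitors, stood at 107, 85.8 and 105 CPM in iHoxc9 and at 31.5, 21.3 and 36.1 CPM in iHoxc10, so the groups were far apart (log2 fold change 1.74). Neurod4 stood at 45.7 ± 8.92 and 12.4 ± 3.25 CPM (1.89, adjusted p = 0.000237) and Neurod1 at 29.6 ± 6.58 and 12.7 ± 2.36 CPM (1.22, adjusted p = 0.00766). Neurog1 was lower in iHoxc9 (-1.19). In the same libraries Hes5 did not pass between the groups.

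The genes most like Hes5 and Dll1 were taken by Pearson's r of log2(CPM + 1) over the 18 libraries, among 13192 genes with a mean of at least 1 CPM. For Hes5 they were Ankrd33b (r = 0.926), Ccdc163 (0.912), Akr1c12 (0.908), Pttg1 (0.906) and Olig2 (0.901). For Dll1 they were D430020J02Rik (r = 0.837), Brpf3 (0.827), Cep250 (0.827), Zcchc8 (0.817) and Fyco1 (0.810). These values describe 18 libraries that share 6 groups and 4 runs. Olig2 is also 1 of the 10 progenitor markers, of which 2 rose and 2 fell in iHoxc9 against controls.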

How the data were processed

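PolyA RNA was made into stranded libraries and read as single-end 75-base reads. The authors deposited raw read counts per gene, keyed by Entrez identifier, on mm10; the submitters' processing notes name STAR 2.7.0c, featureCounts, Picard 2.8.2 and DESeq2 1.20.0, and the strand setting of the counting is not given in the sources used here. Exons of Dll1, Notch1, Notch3 and Hes5 overlap a gene on the other strand and those of Notch2 one on the same strand, so their counts may include such reads.

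The 18 libraries were fitted together with edgeR 4.0.16 in R 4.3.3 (quasi-likelihood test, TMM factors, group as the only term) on 20944 genes with at least 1 count in any induced library, with Benjamini-Hochberg adjustment over all of them, and called at an adjusted p under 0.01. Levels are TMM-normalized CPM, and SEs come from the F statistic. The fit was tested on simulated data of iHoxc9 against control over 20944 genes, which called 80 of 100 genes simulated at a log2 fold change of 1, 99 of 100 at 2, and 4 of 20744 with no change. Alternatives were DESeq2 1.42.0 and its size factors, other count filters, fits of only the groups compared, a replicate block and leaving out each library. The replicate block was checked by the correlation of deviations of same-numbered libraries: it was 0.42 to 0.54 in the 3 pairs of iHoxc9 and iHoxc10, which therefore count as paired, and not above 0.1 in every pair of any other comparison. Chi-square statistics of replicate pairs were 6.78 to 234 per degree of freedom, so no library was a repeat of another.

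Of pathway and proneural genes, up to 4 called genes per comparison with the largest change and a mean of at least 1 CPM were named; Rbpj and Lfng fall outside this rule and were named after their values were seen. The members and lists were chosen with earlier results of these data known. Coordinates and sequences are from RefSeq and GENCODE annotation of GRCm38.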

Additional observations from a re-analysis of the deposited data

Results flagged for a closer look

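Between iHoxc9 and iHoxc10, the 1 pair of inductions tested directly, Jag1 was the member called in the fit of all libraries. Its level was higher in iHoxc9 than in iHoxc10 neurons by a log2 fold change of 1.00 (edgeR adjusted p = 0.00453), in 3 of 3 iHoxc9 libraries against every iHoxc10 library. Leaving out 1 library kept the direction and lost the call in 5 of 6 fits. The fit of these 2 groups alone also called Notch1 (adjusted p = 4.29e-06) and Hes1 (adjusted p = 0.00462).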

How the results depend on the processing

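The calls of Jag1, Notch3 and Hes5 in iHoxc9 and of Hes5 in iHoxc10 against control held under all 12 alternatives, and no called member changed direction. Of genes simulated at a log2 fold change of 1 for iHoxc9 against control, 80 of 100 were called. Leaving out control replicate 2 raised the member count against control in each induced group, and the cause was not tested. Other libraries moved counts as well, as the call of Notch1 in iHoxc9 was lost without control replicate 1 or 3.

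Requiring in addition a log2 fold change beyond 2, the members called were 0 in control against day 2, 0 in iHoxc9 and 0 in iHoxc10 against control and 0 between iHoxc9 and iHoxc10. Against day 2 iHoxc6 had 1 (Dll3), iHoxc8 had 0, iHoxc9 had 0 and iHoxc10 had 1 (Hes5). At an adjusted p under 0.05 there were 1 in iHoxc6, 1 in iHoxc8 and 2 in iHoxc10 against control, and 2 between iHoxc9 and iHoxc10. Neither at that threshold nor for the refits below is the share of all genes given here. Leaving out 1 library gave 0 to 3 members in iHoxc6, 0 to 2 in iHoxc8 and 1 to 2 in iHoxc10 against control, and 0 to 1 between iHoxc9 and iHoxc10. A fit of only iHoxc9 and iHoxc10 called 3, adding Notch1 (adjusted p = 4.29e-06) and Hes1 (adjusted p = 0.00462), and the cause was not tested.

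Of the 56 other pathway genes, those called beyond a log2 fold change of 2 were 6 in control against day 2. Against control iHoxc6 had 0, iHoxc8 had 1, iHoxc9 had 3 and iHoxc10 had 3, and they were 0 between iHoxc9 and iHoxc10. At an adjusted p under 0.05 against control iHoxc6 had 3, iHoxc8 had 8, iHoxc9 had 24 and iHoxc10 had 18, and they were 7 between iHoxc9 and iHoxc10. Shares of all genes at that looser threshold and in the refits below are not given here, and the shares given above are for an adjusted p under 0.01. A fit of only the groups compared called 0 in iHoxc6 and 8 between iHoxc9 and iHoxc10, and DESeq2 called 2 in iHoxc6 and 5 in iHoxc8. Leaving out 1 library gave 0 to 3 for iHoxc6, 1 to 5 for iHoxc8, 7 to 16 for iHoxc9, 6 to 12 for iHoxc10 and 1 to 2 between iHoxc9 and iHoxc10.

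With the planned replicate block over all libraries, 1 of these 56 genes was called in iHoxc8, and Jag1 was kept between iHoxc9 and iHoxc10 (adjusted p = 0.0079). The blocked fit of iHoxc9 and iHoxc10 alone, chosen after seeing the data, called 7 members and 26 of the 56. With the block, the log2 fold changes of Jag2 in iHoxc6 and Dll3 in iHoxc10 against control changed sign, to -0.0016 and 0.012.

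Other changes of sign were in members not called, with log2 fold changes close to 0. Against control, DESeq2 size factors gave -0.023 for Jag1 and -0.046 for Jag2 in iHoxc6, -0.0095 for Dll3 in iHoxc8, -0.011 for Dll1 in iHoxc9 and 0.021 for Dll3 in iHoxc10, and the DESeq2 Wald test gave -0.023, -0.046, -0.0099, -0.011 and 0.020. A filter of 10 counts gave -0.0062 for Jag2 in iHoxc6. No filter gave -0.0021 for Jag2 in iHoxc6, -0.032 for Dll3 in iHoxc8 and -0.028 for Dll1 in iHoxc9. A fit of only the groups compared gave -0.0021, -0.032 and -0.0032 for these 3.

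Leaving out 1 library moved log2 fold changes against control from -0.27 to 0.22 for Dll1, -0.12 to 0.34 for Jag1 and -0.11 to 0.14 for Jag2 in iHoxc6. In iHoxc8 the ranges were -0.27 to 0.23 for Dll1, -0.19 to 0.49 for Dll3, -0.17 to 0.038 for Jag2 and -0.020 to 0.49 for Hes1. In iHoxc9 the range was -0.18 to 0.32 for Dll1. In iHoxc10 the ranges were -0.36 to 0.13 for Dll1, -0.21 to 0.47 for Dll3, -0.055 to 0.71 for Notch1 and -0.42 to 0.068 for Hes1. Between iHoxc9 and iHoxc10 the range was -0.27 to 0.011 for Jag2.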

Other observations

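Neurog3, a proneural gene better known from the pancreas, had counts in only 1 of 3 day 2 libraries, at 0.0937 CPM, and stood at 1.89 to 2.99 CPM in controls, 6.06 to 9.83 CPM in iHoxc9 and 5.83 to 10.2 CPM in iHoxc10. With a pseudocount of 0.1 in place of 1, BC064078 took the place of Akr1c12 among the 5 genes most like Hes5.

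The endothelial marker sum was at most 4.8 CPM in any library. Endothelial and other vessel cells also use Jag1, Notch3 and Hey1. Gfap, 1 of 8 glial markers, had 0 counts in control, iHoxc9 and iHoxc10 libraries, while the other 7 had at least 1 count in each of these groups. Among those 7, Aqp4 and S100b had 3 counts or fewer in every iHoxc9 library, as did S100b in every iHoxc10 library. The glial marker sum was 25.4 to 32.6 CPM in day 2 libraries and 83.9 to 161 CPM in day 4 libraries. Pou5f1 and Nanog had 0 counts in controls.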
